A study of Homo sapiens with 6 samples.

Results

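The 10 genes described here are the Toll-like receptor genes TLR1, TLR2, TLR3, TLR4 and TLR6, the TLR4 co-receptor genes CD14 and LY96, and the adaptor genes MYD88, TICAM1 and TIRAP. They were selected on their known role and on earlier readings of these same counts, and are found by their symbols in count files that list 24462 different symbols, and each of the 10 is listed. The bulk RNA-seq dataset compares 3 libraries of 1CT with 3 libraries of 1CT-A. 1CT is an immortalized human colon epithelial cell line (HCEC) with wild type APC, which the sample labels call colonic epithelial progenitor cells, and 1CT-A is the same line depleted of APC, labelled as an APC knockdown. APC is the scaffold of the complex that degrades β-catenin, and APC is mutated in many colorectal tumors. Both lines are untreated and grow in the same medium of DMEM and M199 with 2% FBS, 20 ng/ml EGF, 1 μg/ml hydrocortisone, 10 μg/ml insulin, 2 μg/ml transferrin and 5 nM sodium selenite, so no Toll-like receptor ligand is added on purpose. Each line is 1 cell line, a vector control for 1CT is not given in the sources used here, and nothing in the labels says that the 3 libraries of a line come from separate cultures, so p values measure the spread between these libraries, which may be technical. Because the list was chosen by someone who knew the counts of this contrast, among them the fall of TLR4, the differences of these 10 genes between 1CT and 1CT-A are given as a description without p values. Tests are given only for other genes of the pathway.

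Toll-like receptors are membrane receptors that detect molecules of microbes and of damaged cells. TLR4 recognizes bacterial lipopolysaccharide together with MD-2, the product of LY96, after CD14 has handed the lipopolysaccharide over. TLR2 pairs with TLR1 or TLR6 to detect bacterial lipopeptides, and TLR3 detects double-stranded RNA in endosomes. The receptors signal through the adaptors MyD88 and TIRAP toward NF-κB, or through TRIF, the product of TICAM1, toward interferon genes. TLR4 can use both routes, whereas TLR3 uses TRIF. In the gut these receptors face a dense microbial flora, and the level of TLR4 in normal colon epithelium is known to be low.

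Each 1CT library holds between 7788679 and 8452258 counts, and each 1CT-A library between 11158108 and 12602988. A level of 3 counts is used as the limit of detection, which is 0.355 to 0.385 CPM (each library's counts scaled to a common total) for 1CT, and for 1CT-A 0.238 to 0.269 CPM. The limit covers counting error only, and no molecular identifiers are named in the sources used here. APC itself has a mean of 46.6 CPM in 1CT (SD 2.75, n = 3) against 31.9 CPM in 1CT-A (SD 2.21, n = 3), with an edgeR adjusted p of 1.8e-04. The label of colon epithelium is not borne out by every marker, since EPCAM and VIL1 have no count in any of the 6 libraries, while the 6 mesenchymal markers sum to 4619 to 5567 CPM in 1CT against 4032 to 4317 CPM in 1CT-A. The 6 epithelial markers sum to 13.3 to 17.3 CPM in 1CT, compared with 3.23 to 7.20 CPM in 1CT-A. KRT19 is at least 13.0-fold lower in 1CT-A, where it has no count, and KRT18 is also lower there (log2 fold change -1.19, standard error 0.23, edgeR adjusted p = 8.8e-04). All 6 mesenchymal markers were tested, and edgeR calls 4 lower and 1 higher in 1CT-A. This is 66.7% and 16.7%, beside 26% and 25% of all genes tested. PDGFRB (log2 fold change -0.98), THY1 (-0.91), COL1A1 (-0.59) and VIM (-0.20) are lower, and DCN (0.30) is higher. Of 10 myeloid markers, PTPRC, TYROBP, CD163 and SPI1 have no count in any library, and the 9 other than CD68 sum to at most 10 counts per library. The 10 together sum to 11.2 to 14.9 CPM in 1CT, compared with 9.28 to 10.2 CPM in 1CT-A, nearly all of it CD68. The endothelial and lymphocyte markers sum to at most 0.514 CPM per library. Reads on 378 olfactory receptor genes, which these cells are not thought to use, sum to 3.38 to 4.5 CPM in 1CT, with 1.40 to 1.67 CPM in 1CT-A, or at most 0.101 counts per gene and library.

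To show the sequence context of members that behave differently, the 250 bases before the annotated start are given for TLR4, which has almost no counts in 1CT-A, for TICAM1, which is counted in both lines at a lower level in 1CT-A, and for MYD88, whose levels overlap between the lines. The sequences are those of RefSeq on GRCh38.p14. They are read 5′ to 3′ on the strand of the gene, and capitals mark the matches of the motifs searched.
TLR4, plus strand, chr9:117704153-117704402: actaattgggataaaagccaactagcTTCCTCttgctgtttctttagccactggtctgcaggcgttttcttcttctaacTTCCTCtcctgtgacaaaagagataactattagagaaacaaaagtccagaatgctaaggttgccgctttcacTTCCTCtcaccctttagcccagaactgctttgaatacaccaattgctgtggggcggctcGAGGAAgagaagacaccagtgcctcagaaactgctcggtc
TICAM1, minus strand, chr19:4831713-4831962: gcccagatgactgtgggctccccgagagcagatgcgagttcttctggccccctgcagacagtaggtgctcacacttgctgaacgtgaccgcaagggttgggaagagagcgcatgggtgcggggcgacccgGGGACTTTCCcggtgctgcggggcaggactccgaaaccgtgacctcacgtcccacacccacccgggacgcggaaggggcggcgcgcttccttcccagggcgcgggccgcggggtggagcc
MYD88, plus strand, chr3:38138411-38138660: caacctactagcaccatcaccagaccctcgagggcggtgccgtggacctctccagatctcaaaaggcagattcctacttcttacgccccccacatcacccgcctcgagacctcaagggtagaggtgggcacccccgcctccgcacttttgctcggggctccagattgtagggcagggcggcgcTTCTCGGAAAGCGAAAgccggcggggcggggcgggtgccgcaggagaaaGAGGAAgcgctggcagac

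The motifs were searched on both strands, and matches could overlap. They are GGG, any 2 bases and TTTCC for NF-κB, TGANTCA for AP-1, GAGGAA for PU.1 and other ETS factors, GAAA, any 2 bases and GAAA for IRF factors, TTCNNNGAA for STAT factors and ATCAAAG for TCF factors, where N is any base. The TLR4 window holds 4 matches of GAGGAA and no other motif. Of 27305 windows of the same length before RefSeq starts, 23.4% hold GAGGAA at least once and 14 (0.0513%) hold it 4 times or more. The TICAM1 window holds 1 match of the NF-κB motif, which is found in 1.73% of all windows. The MYD88 window holds 1 match each of the ETS, IRF and STAT motifs, where the IRF and STAT motifs are found in 3.07% and 6.78% of all windows. The CG dinucleotide occurs 5 times in the TLR4 window, 23 times in that of TICAM1 and 19 times in that of MYD88, with a median of 11 over all windows. TLR2, which has almost no counts in either line, has 26. TLR3, TLR6 and CD14 have 3, 4 and 5, about as few as TLR4, and each has counts in every 1CT-A library. The windows of TLR6 and CD14 also hold 1 match of GAGGAA each. That of CD14 holds 1 match each of the AP-1 and STAT motifs too, and that of TLR3 holds 2 of the STAT motif. These matches are descriptions of letters and do not show that a factor binds. RefSeq windows were found for 7 of the 10 genes, and those of TLR1, LY96 and TIRAP were not matched.

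TLR4 is the receptor that sets the 2 lines apart most. The 1CT libraries hold 240, 209 and 141 counts, which are 28.4, 25.2 and 18.1 CPM, whereas the 1CT-A libraries, which are deeper, have 0, 0 and 2 counts. Every 1CT library is thus far above the limit of 3 counts and every 1CT-A library is below it. On summed counts the rate of TLR4 in 1CT-A is 0.00237 of that in 1CT (exact 95% interval 0.000286 to 0.00858, counting error only). The upper end of the interval stays at or under 0.0127 when any 1 library is left out, and without 1CT-A replicate 3 no count of TLR4 is left in 1CT-A. The third 1CT library is the lowest of its line. In bulk samples, fewer cells that hold the transcript and less of it per cell cannot be told apart. Of the myeloid markers, CD68, the one with enough counts for the test, is also lower in 1CT-A (12.1 ± 1.94 against 9.33 ± 0.805 CPM, SD, n = 3, log2 fold change -0.41, edgeR adjusted p = 0.0380), and its part in the TLR4 and CD14 counts was not tested. The other 9 sum to at most 10 counts per library, with SPI1, the gene of PU.1, at 0 in all 6. The genes of other ETS factors were not read as a list. Among the neighbours of TIRAP, the ETS factor gene FLI1 is lower in 1CT-A (log2 fold change -3.88, edgeR adjusted p = 6.6e-08). ETS1 is not called there (0.16, edgeR adjusted p = 0.201). The part of these factors in the TLR4 counts was not tested.

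**Figure D1:**
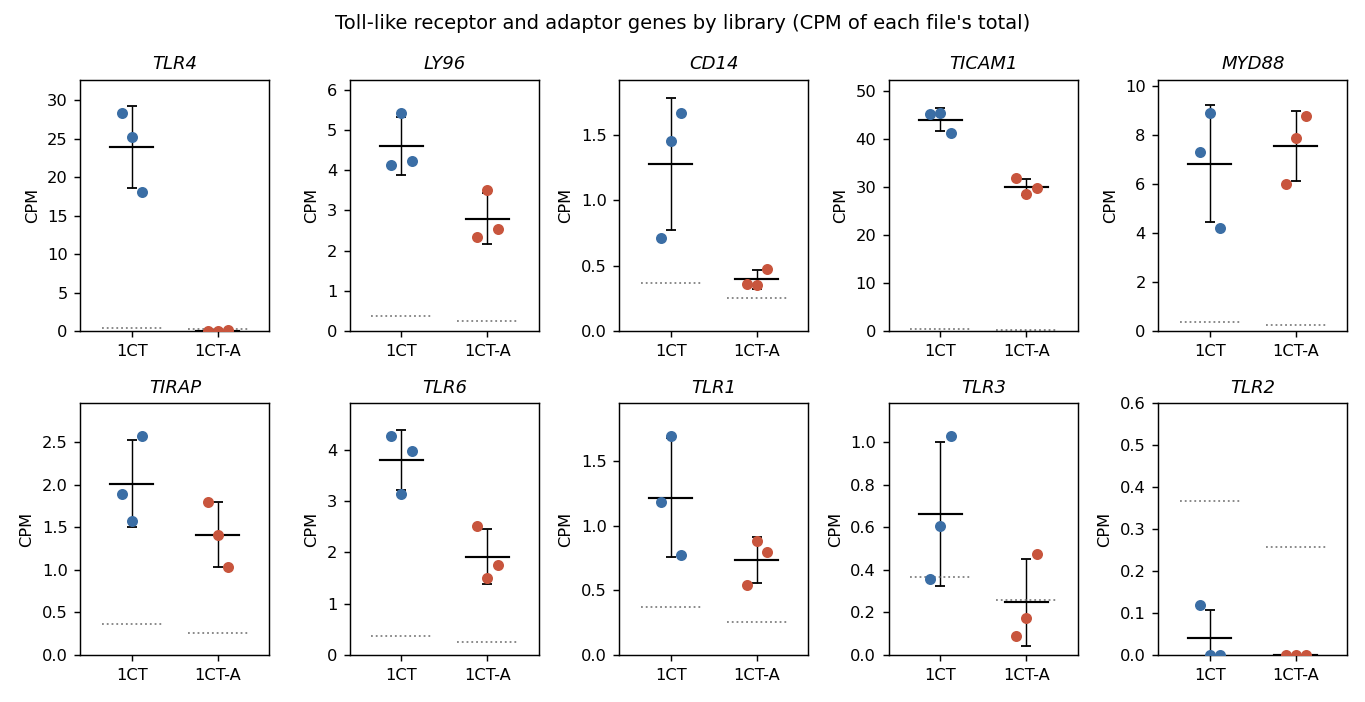
Level of each of the 10 genes in every library, in CPM of the library's total (y axis, from 0, with its own scale per gene), for 1CT (blue) and 1CT-A (red). Points are libraries, black lines are means with SD over 3 libraries, and dotted lines mark the level of 3 counts. TLR4 is at 18.1 to 28.4 CPM in 1CT and at the bottom of the axis in 1CT-A, while the points of MYD88 overlap.

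The co-receptor genes of TLR4 are counted in both lines. LY96, whose product MD-2 binds the lipid part of lipopolysaccharide, is at 4.14, 5.43 and 4.24 CPM in 1CT and at 2.33, 3.51 and 2.54 CPM in 1CT-A. The lines do not overlap, and the log2 fold change is -0.76 (standard error 0.24). CD14, whose product carries lipopolysaccharide to TLR4, has 6, 12 and 13 counts in 1CT and 4, 4 and 6 counts in 1CT-A. In CPM this is 0.710, 1.45 and 1.67 against 0.359, 0.351 and 0.476, again without overlap, at a depth too low for the fit. On summed counts of 31 in 1CT and 14 in 1CT-A, the rate of CD14 in 1CT-A is 0.315 of that in 1CT, given as a description of few counts. Both lines thus keep counts on the genes of the lipopolysaccharide-binding partners, while counts on the receptor gene itself are nearly confined to 1CT.

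TLR6 and TLR1, the partners of TLR2, are neighbouring genes on chromosome 4 with similar sequences, and their annotated exons overlap, so reads could have been divided between them and both values are uncertain. TLR6 is at 4.26, 3.14 and 3.98 CPM in 1CT and at 2.51, 1.49 and 1.75 CPM in 1CT-A. All 3 libraries of 1CT-A lie below all 3 of 1CT, and the log2 fold change is -1.02 (standard error 0.28). TLR1 has 10, 14 and 6 counts in 1CT and 6, 10 and 10 counts in 1CT-A, and its CPM values overlap between the lines (1.21 ± 0.461 and 0.736 ± 0.177, SD, n = 3). TLR2 itself, the shared partner, has 1 count in 1 library of 1CT and none in the other 5 libraries, which is under the limit of 3 counts in both lines, so no ratio is given. TLR3 has 3, 5 and 8 counts in 1CT and 1, 2 and 6 counts in 1CT-A. Its CPM values overlap, and on the few summed counts of 16 in 1CT and 9 in 1CT-A the rate in 1CT-A is 0.392 of that in 1CT, so no direction is given. The members with few counts lean toward 1CT, as do the olfactory receptor reads given above, and the part of such reads in the counts of TLR1, TLR3 and CD14 was not tested.

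Among the adaptors, TICAM1 is the gene of TRIF, the adaptor of the interferon route. It is at 45.3, 45.5 and 41.2 CPM in 1CT and at 31.9, 28.5 and 29.8 CPM in 1CT-A. The lines are separated by more than the spread of either, with a log2 fold change of -0.59 (standard error 0.09) and counts of 321 to 383 per library. MYD88, the adaptor gene shared by most Toll-like receptors and the IL-1 receptor family, is at 7.34, 8.93 and 4.24 CPM in 1CT and at 6.0, 7.90 and 8.81 CPM in 1CT-A. The lines overlap, and the log2 fold change of 0.11 (standard error 0.24) turns to -0.12 without 1CT replicate 3 and to -0.01 without 1CT-A replicate 3, so no direction can be given. Its 95% interval from -0.40 to 0.62 covers a moderate change either way. TIRAP, whose product brings MyD88 to TLR2 and TLR4, is at 1.89, 1.57 and 2.57 CPM in 1CT and at 1.79, 1.40 and 1.03 CPM in 1CT-A. Its libraries overlap (log2 fold change -0.55, standard error 0.34).

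Of the 10 genes, 6 have enough counts for the fit, which are TLR4, TLR6, LY96, MYD88, TICAM1 and TIRAP. TLR4 passes that filter only through 1CT. In 4 of these 6 (TLR4, TLR6, LY96 and TICAM1) the 1CT-A libraries lie below the 1CT libraries without overlap, a pattern that 27.9% of the 12514 genes tested show, beside 51% of genes called in either direction, and in none do they lie above, which 31.8% of all genes do. Nothing is read from this comparison, because the 10 genes were picked with these values known. Genes with low levels also lean toward 1CT as a whole. Among the 1114 genes tested with a mean under 2 CPM, edgeR's test with the adjusted p below 0.05 finds 35.6% lower and 8.26% higher in 1CT-A, and among the 3176 genes from 2 to 10 CPM, where TLR6, LY96 and MYD88 lie, it is 29.4% and 14.3%.

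The genes whose pattern over the 6 libraries is most like that of TLR4 were taken as the 5 with the smallest distance of centred log2(CPM + 0.5) values. They are KRBOX1 (distance 0.620), IL18 (0.678), MBP (0.723), IFI27 (0.980) and IGFBP2 (1.17). KRBOX1 has 191 to 241 counts per library in 1CT and at most 1 in 1CT-A, and IFI27, an interferon-induced gene, has 120 to 142 counts in 1CT and at most 2 in 1CT-A. IL18, a cytokine gene of the IL-1 family, keeps 4 to 8 counts per library in 1CT-A. MBP keeps 7 to 11 and IGFBP2 keeps 161 to 262 counts there. Since the 2 lines form 2 groups of 3, this distance takes in both the difference between the lines and the spread within each.

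The genes tested on either side of TLR4 on chromosome 9 do not share its near loss of counts. Of the 5 nearest protein-coding genes on each side, 7 have enough counts for the test. BRINP1, the gene next to TLR4 on one side, has at most 1 count in any library, so its difference cannot be read. TRIM32, the closest tested gene, shows a difference of 0.00 on the log2 scale (standard error 0.09, edgeR adjusted p = 0.991). PAPPA, a metalloproteinase gene, falls (-0.86, standard error 0.09, edgeR adjusted p = 5.5e-06), CDK5RAP2 falls (-0.35, edgeR adjusted p = 0.0111), and TNC, the gene of tenascin-C, rises (2.33, standard error 0.36, edgeR adjusted p = 1.3e-04). Beside TLR1 and TLR6, the next 3 genes on one side, FAM114A1, TMEM156 and KLHL5, fall with log2 fold changes of -0.74, -2.91 and -0.80 (edgeR adjusted p of at most 2.0e-05). Farther on that side, WDR19 is not called and RFC1 rises (0.53, edgeR adjusted p = 2.0e-04). On the other side, KLF3 and PTTG2 are not called. TLR10, the third Toll-like receptor gene there, has 1, 2 and 1 counts in 1CT and none in 1CT-A. Over all 10 members, 61 neighbours were tested, of which 16 are lower and 10 are higher in 1CT-A, beside shares of 26% lower and 25% higher over all genes tested.

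**Figure D2:**
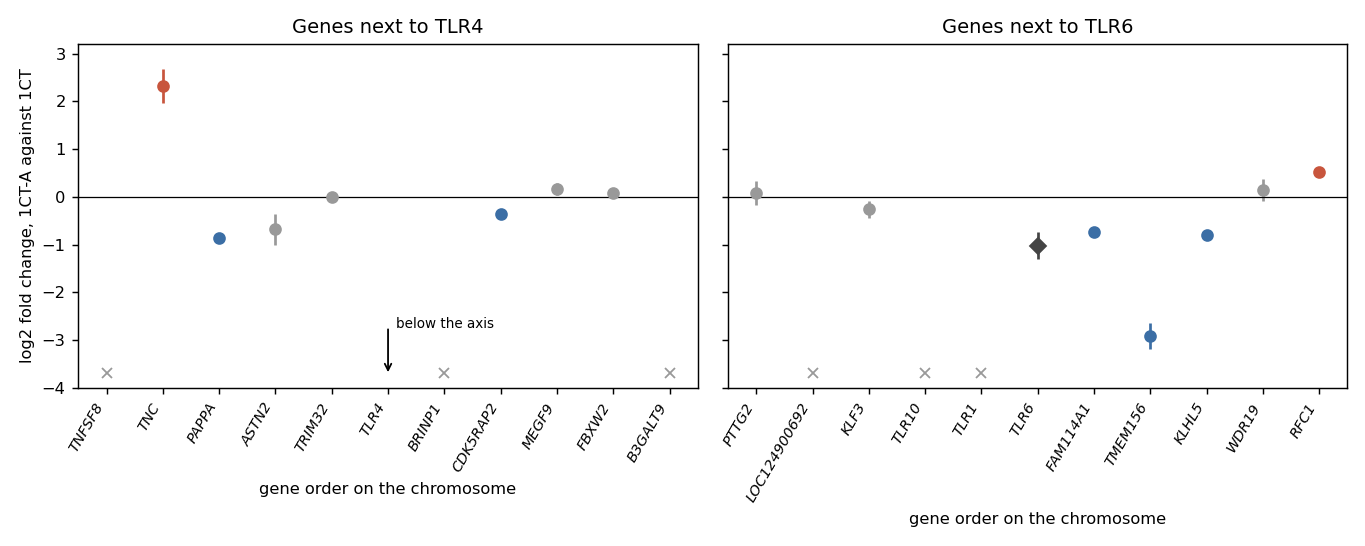
Difference of 1CT-A from 1CT as log2 fold change (y axis, with standard error) for the 5 protein-coding genes on each side of TLR4 (left) and of TLR6 (right), in the order of the genes on the chromosome (x axis, not to scale). Blue genes are lower and red genes higher in 1CT-A at an edgeR adjusted p under 0.05, grey genes are not called, crosses at the bottom are genes not tested, the arrow stands for TLR4, which is below the axis, and the black diamond is TLR6. TNC rises by 2.33 near TLR4, and TMEM156 lies at -2.91 near TLR6.

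The rest of the pathway was read from 59 further genes of Toll-like receptor signaling, of which 45 have enough counts for the test. With the adjusted p of edgeR below 0.05, 10 of the 45 are lower and 8 are higher in 1CT-A, which is 22.2% and 17.8%, where over all 12514 genes it is 26% and 25%. The median log2 fold change of the 45 genes is -0.05, and that of all genes tested is -0.01. The other Toll-like receptor genes are outside the range of the test, since TLR5, TLR7, TLR8, TLR9 and TLR10 have at most 2 counts in any library of either line. LBP, CD180 and LY86, which help in lipopolysaccharide sensing on blood and liver cells, have at most 1 count per library, and CD36 has at most 3.

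Of the 5 chaperones and trafficking factors of the receptors that were tested, 0 are lower and 1 is higher in 1CT-A. This is 0% and 20%, beside 26% and 25% of all genes tested. HSP90B1, the gene of the chaperone gp96 that folds most Toll-like receptors, is higher in 1CT-A (log2 fold change 0.31, standard error 0.08, edgeR adjusted p = 0.00679). Its partner CNPY3 (-0.06), CNPY4 (0.04), TMED7 (0.17) and UNC93B1 (-0.30), which escorts nucleic acid receptors to endosomes, have adjusted p values of at least 0.298 in the same test. Of the 2 further adaptors tested, SARM1, a Toll-domain protein that acts as an NADase, is lower (-0.59, standard error 0.19, edgeR adjusted p = 0.0207). This call is lost without 1CT replicate 1, 1CT-A replicate 2 or 1CT-A replicate 3 (edgeR adjusted p = 0.0545, 0.0895 and 0.0982). SARM1 overlaps SLC46A1 on the opposite strand, and the counts of both are close in every library (102 and 111 in the first 1CT library), so the reads cannot be assigned to one of them. TICAM2, the bridging adaptor between TLR4 and TRIF, is not called (0.27, standard error 0.14, edgeR adjusted p = 0.123). Its counts (81 to 187 per library) nearly equal those listed for the read-through gene TMED7-TICAM2 (83 to 192), so the reads of the 2 entries cannot be told apart here.

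The kinases and ubiquitin ligases next to the receptors are mostly not called, with 5 higher and 1 lower in 1CT-A among the 21 tested. This is 23.8% higher and 4.76% lower, beside 25% higher and 26% lower over all genes tested. Those not called include IRAK4, the kinase that MyD88 recruits first (-0.17, 95% interval -0.40 to 0.06), TRAF6, the ubiquitin ligase of the MyD88 route (-0.11, 95% interval -0.63 to 0.41), and MAP3K7, the gene of the kinase TAK1 (0.09, 95% interval -0.07 to 0.26). PELI2, the gene of a ligase that modifies IRAK proteins, rises most, from 0.828, 0.724 and 1.28 CPM to 3.67, 4.39 and 3.65 CPM (log2 fold change 2.00, standard error 0.31, edgeR adjusted p = 1.4e-04). CHUK, the gene of IKKα, rises from 34.4 ± 8.90 to 62.1 ± 3.98 CPM (SD, n = 3, edgeR adjusted p = 3.8e-04). UBE2N, the gene of the ubiquitin-conjugating enzyme Ubc13, rises from 64.1 ± 6.63 to 98.9 ± 4.29 CPM (SD, n = 3, edgeR adjusted p = 9.3e-05). ECSIT, a TRAF6 partner, also rises (0.52, standard error 0.12, edgeR adjusted p = 0.00237). IKBKE, the gene of the interferon-route kinase IKKε, falls from 9.04 ± 1.17 to 5.09 ± 1.01 CPM (SD, n = 3, edgeR adjusted p = 0.00213). TBK1, its partner kinase gene, is not called (0.36, 95% interval -0.14 to 0.85). The small rise of IRAK1 (0.22, standard error 0.09, edgeR adjusted p = 0.0437) is lost without 1CT replicate 1, 1CT replicate 2, 1CT-A replicate 1 or 1CT-A replicate 2 (edgeR adjusted p = 0.116, 0.158, 0.149 and 0.0984).

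The genes that restrain the pathway hold the largest fall among the 45 genes. All 11 were tested, and 5 are lower and 2 are higher in 1CT-A, which is 45.5% and 18.2% beside 26% and 25% of all genes tested. TNFAIP3, the gene of the ubiquitin-editing enzyme A20 that shuts off NF-κB signaling, has 93, 81 and 91 counts in 1CT and 13, 11 and 17 counts in 1CT-A, although the latter libraries are deeper. In CPM it is at 11, 9.78 and 11.7 against 1.17, 0.966 and 1.35, which gives -3.24 on the log2 scale (standard error 0.22, edgeR adjusted p = 1.2e-07). TNIP1, the gene of the A20-binding protein ABIN1, falls from 75.7 ± 7.77 to 33.0 ± 0.424 CPM (SD, n = 3, log2 fold change -1.23, edgeR adjusted p = 3.4e-07). SIGIRR, a decoy-like receptor of the IL-1 receptor family, falls from 11.1 ± 2.09 to 6.75 ± 0.652 CPM (SD, n = 3, edgeR adjusted p = 0.00306). CYLD, the gene of a deubiquitinase, also falls (-0.50, standard error 0.13, edgeR adjusted p = 0.00553). SOCS1, an inhibitor of cytokine and Toll-like receptor signaling, goes the other way, from 0.710, 2.05 and 1.54 CPM to 5.11, 5.79 and 6.19 CPM (log2 fold change 1.95, standard error 0.30, edgeR adjusted p = 1.3e-04).

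Smaller differences of the restraint genes depend on single libraries. The fall of TOLLIP (-0.29, edgeR adjusted p = 0.0248) is lost without 1CT replicate 3, 1CT-A replicate 2 or 1CT-A replicate 3 (edgeR adjusted p = 0.0774, 0.0873 and 0.0933). The rise of IRAK3, the gene of the inactive kinase IRAK-M (0.33, edgeR adjusted p = 0.0352), is lost without 1CT replicate 3, 1CT-A replicate 1 or 1CT-A replicate 3 (edgeR adjusted p = 0.0794, 0.0728 and 0.164).

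Of the 6 transcription factor and inhibitor genes tested, 0 are called higher and 3 lower in 1CT-A. This is 0% and 50%, beside 25% and 26% of all genes tested. With the edgeR adjusted p under 0.01, 0 of them are lower. RELA and NFKB1, the genes of the main NF-κB dimer, and NFKBIA, the gene of its inhibitor IκBα, are not called, with log2 fold changes of -0.19, -0.11 and -0.09 (edgeR adjusted p = 0.119, 0.484 and 0.281). IRF7 (-1.22, standard error 0.36, edgeR adjusted p = 0.0126), REL (-0.65, standard error 0.19, edgeR adjusted p = 0.0123) and IRF3 (-0.47, standard error 0.15, edgeR adjusted p = 0.0191) are lower in 1CT-A. IRF3 and IRF7 are the interferon regulatory factors activated through TRIF and MyD88. The call of IRF7 is lost without 1CT-A replicate 1 (edgeR adjusted p = 0.0554). That of REL is lost without 1CT replicate 3 or 1CT-A replicate 3 (edgeR adjusted p = 0.0518 and 0.0614), and that of IRF3 without 1CT replicate 2, 1CT-A replicate 1 or 1CT-A replicate 2 (edgeR adjusted p = 0.0619, 0.0847 and 0.0529). IRF3 also overlaps BCL2L12 on the opposite strand, as IRAK4 does TWF1 and IFIT2 and IFIT3 do LIPA, and such reads are uncertain without the strand.

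**Figure D3:**
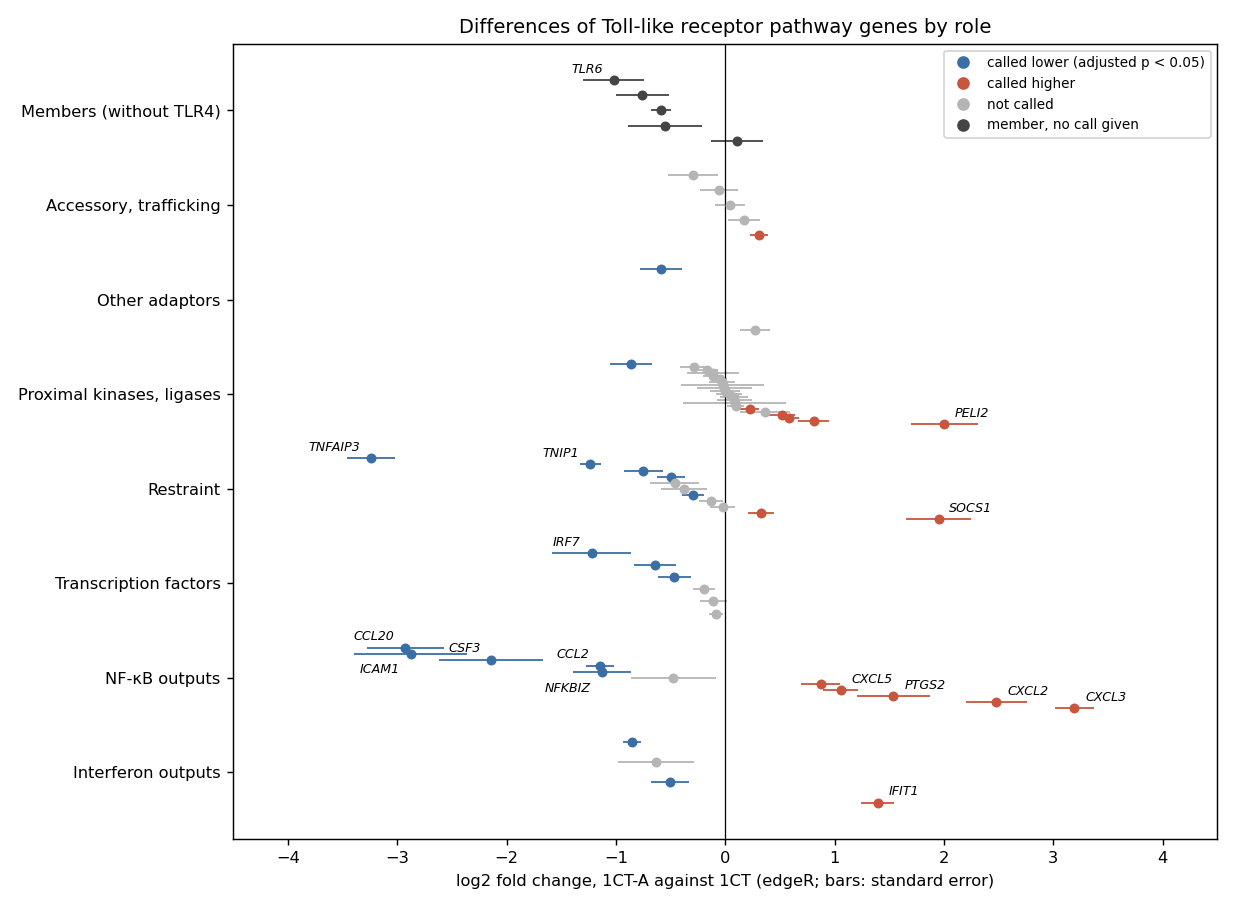
Difference of 1CT-A from 1CT as log2 fold change (x axis, bars are standard errors) of the genes with enough counts for the test, arranged by role (y axis). Blue points are lower and red points higher at an edgeR adjusted p under 0.05, grey points are not called, and black points are members, for which no call is given. TLR4 is left out because 1CT-A holds only 2 counts of it. TNFAIP3 at -3.24 and CXCL3 at 3.19 lie farthest from 0.

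Genes that Toll-like receptor signaling is known to induce move in both directions. Of 24 such genes, 15 were tested, of which edgeR calls 7 lower and 6 higher in 1CT-A, which is 46.7% and 40% beside 26% and 25% of all genes tested. The median log2 fold change of the 15 genes is -0.51. IFNB1 has no count in any library, TNF and CSF2 have at most 2 counts, and IL6 has at most 4, so that the cytokine genes most often read after Toll-like receptor stimulation are near or below the limit of 3 counts in both untreated lines.

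Of 5 CXC chemokine genes whose products attract neutrophils, 4 are higher in 1CT-A and CXCL8 is not called, where 25% of all genes tested are higher. These 5 are a part of the NF-κB outputs, grouped with their values known. The chemokine genes CCL2 and CCL20 of the same list are lower. CXCL3 rises from 2.01, 1.69 and 1.80 CPM to 15.5, 18.1 and 18.3 CPM (log2 fold change 3.19, standard error 0.18, edgeR adjusted p = 2.1e-08). CXCL2 rises from 1.06 ± 0.230 to 6.11 ± 1.11 CPM (SD, n = 3, log2 fold change 2.48, edgeR adjusted p = 1.0e-05). CXCL1 (0.87, edgeR adjusted p = 0.00134) and CXCL5 (1.05, edgeR adjusted p = 1.3e-04) are higher too. CXCL1, CXCL2 and CXCL3 are close copies of each other, and reads could have been divided between them. CXCL8 varies more within 1CT than between the lines (log2 fold change -0.47, edgeR adjusted p = 0.327), with 7.22, 18.1 and 3.47 CPM in 1CT and 6.81, 7.72 and 6.82 CPM in 1CT-A. PTGS2, the gene of cyclooxygenase-2, is also higher in 1CT-A (1.54, standard error 0.33, edgeR adjusted p = 0.00175). IL1B, which was not tested, has 2, 3 and 1 counts in 1CT and 4, 12 and 13 counts in 1CT-A. In CPM its lines overlap, since the first 1CT-A library (0.358) lies below the second 1CT library (0.362).

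Other NF-κB output genes are lower in 1CT-A. CCL20, the gene of a chemokine that epithelial cells release toward dendritic and T cells, falls from 8.87, 9.90 and 4.24 CPM to 1.43, 0.878 and 0.793 CPM (log2 fold change -2.93, standard error 0.35, edgeR adjusted p = 1.7e-05). CCL2, the gene of a monocyte chemokine, falls from 47.3 ± 9.0 to 21.9 ± 1.85 CPM (SD, n = 3, log2 fold change -1.15, edgeR adjusted p = 9.0e-06). ICAM1, the gene of a leukocyte adhesion molecule, falls from 2.13, 2.78 and 2.70 CPM to 0.807, 0.175 and 0.0793 CPM (edgeR adjusted p = 4.8e-04). CSF3 (-2.14, edgeR adjusted p = 0.00216) and NFKBIZ, the gene of a nuclear IκB protein (-1.13, edgeR adjusted p = 0.00304), are lower as well. NFKBIZ overlaps NXPE3 on the same strand, which has 440 to 1173 counts per library against 22 to 46 for NFKBIZ, so its counts are uncertain. The NF-κB outputs are thus divided by gene, 5 higher and 5 lower of 11 tested. This is 45.5% in each direction, beside 25% higher and 26% lower over all genes tested, which are themselves divided.

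Of the 4 interferon outputs tested, 2 are lower and 1 is higher in 1CT-A. This is 50% and 25%, beside 26% and 25% of all genes tested. ISG15, a ubiquitin-like protein gene, falls from 92.9 ± 7.49 to 52.7 ± 0.135 CPM (SD, n = 3, log2 fold change -0.85, edgeR adjusted p = 3.1e-06). IFIT1, the gene of an antiviral RNA-binding protein, rises from 6.03, 5.55 and 5.39 CPM to 16.2, 15.8 and 13.9 CPM (log2 fold change 1.39, standard error 0.15, edgeR adjusted p = 5.6e-06). Its neighbour in function IFIT3 is lower (-0.51, edgeR adjusted p = 0.0258), a call that is lost without 1CT replicate 1, 1CT-A replicate 2 or 1CT-A replicate 3 (edgeR adjusted p = 0.113, 0.108 and 0.0581). IFIT2 is not called (-0.63, 95% interval -1.38 to 0.11). CXCL10 and RSAD2 have counts in 1 library of 1CT only, with 5 and 3 counts.

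**Figure D4:**
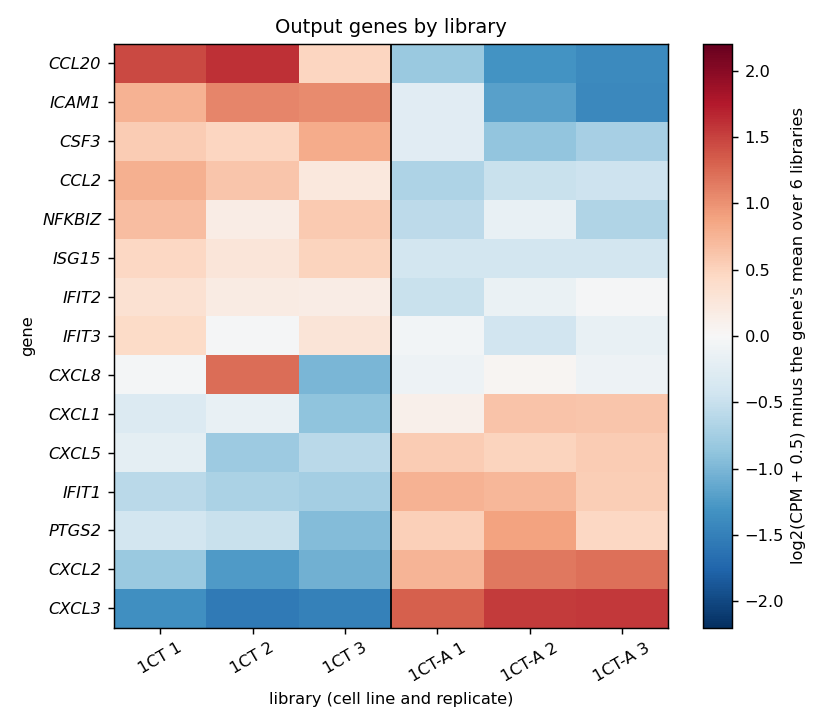
The 15 output genes with enough counts (rows, ordered by their difference) in each of the 6 libraries (columns), as log2(CPM + 0.5) minus the gene's mean over the libraries, with red above and blue below that mean. The upper rows such as CCL20 and ICAM1 are red in 1CT and the lower rows such as CXCL2 and CXCL3 are red in 1CT-A, while CXCL8 differs within 1CT.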

How the data were processed

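Bulk RNA was sequenced from 1CT and 1CT-A cells, with 3 libraries each, grouped by the sample labels. Library preparation followed the QuantSeq 3′ kit and took 500 ng of RNA. The authors deposited raw counts per gene symbol, whole numbers without normalization, 1 file per library. The submitters' processing notes name Bowtie2, edgeR and hg19. The counting tool, annotation and strand setting are not given in the sources used here. Reads prime at the 3′ end, so levels are not divided by transcript length and levels of different genes are not compared. Each file has 25737 entries for 24462 symbols, and entries of the 286 repeated symbols were added together.

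CPM is a count scaled by its file's total. For the tests, TMM factors (0.976 to 1.02) and filterByExpr (minimum count 10) came before quasi-likelihood fits in edgeR 4.0.16 (R 4.3.3), with no replicate block. The p values of 12514 genes were adjusted by Benjamini-Hochberg. Fits were tested on simulated data. The members and lists were chosen with earlier results of these data known. Named in each list are up to 4 called genes that differ most, do not overlap and average 2 CPM or more, and genes with at most 3 counts per library in one line and more in the other. The other genes named were picked after their values were seen. The exact interval of the summed TLR4 counts is binomial at 95%, covers counting error only and is no test. Pairs of libraries of the same line differ by more than counting error. Their chi-square per degree of freedom over genes is 3.00 to 8.42, so the interval leaves out a part of the spread. The 5 genes nearest to TLR4 in pattern are named as well. Neighbouring genes and promoter windows come from RefSeq on GRCh38.p14, a build other than the authors', so neighbours are used by order only. Windows end before the start, leaving out the bases after it. Exon overlaps were read from GENCODE release 44. Alternatives were DESeq2 1.42.0 and its size factors, limma-voom (limma 3.58.1), library size alone, the filter removed or raised to 10 counts in each library, the replicate block, stricter thresholds and each library left out.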

Additional observations from a re-analysis of the deposited data

How the results depend on the processing

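The alternative fits kept the direction of the 40 called differences that were checked, APC among them, and 483 of their 511 alternative values also stayed under an adjusted p of 0.05. The stricter thresholds were not applied to these values. Calls of cell type markers such as CD68, and of neighbouring genes other than TNC, were not among the 40. The 28 values that did not stay under 0.05 concern IFIT3, IRAK1, IRAK3, IRF3, IRF7, REL, RIPK2, SARM1 and TOLLIP. Of these, those from other choices than leaving out a library are IRAK1 with at least 10 counts in every library (edgeR adjusted p = 0.0574) and with the replicate block (0.0601), IRAK3 with the block (0.053) and by DESeq2 (adjusted p = 0.0653), and IFIT3 by DESeq2 (adjusted p = 0.0512). The stricter rule of a 2-fold difference with unadjusted p below 0.01 leaves 1676 in place of 6388 genes, 3 in place of 10 lower and 2 in place of 8 higher genes of the signaling list; the cause was not tested, as the fold and the p threshold change together. An adjusted p under 0.01 gives 5 lower genes of that list, and at least 10 counts in every library gives 5 higher ones, with fewer genes tested. Leaving out 1 library gives 5364 to 6551 genes in all, 7 to 10 lower and 6 to 7 higher genes of the signaling list, and 6 to 8 lower and 6 higher output genes. Without 1CT replicate 1, 1 chaperone or trafficking gene is called lower, where the fit of all libraries calls none. Library size only gives 3014 lower and 3441 higher genes in place of 3257 and 3131, and moves the median of all genes to 0.03. The replicate block leaves 6091 genes called, 6000 of them shared with the fit without it, and 10 lower and 6 higher genes of the signaling list and 7 lower and 6 higher output genes. The deviations of same-numbered libraries correlate at -0.156, 0.216 and -0.136 across 8224 genes, and those of other pairs at -0.286 to 0.339. Libraries do not all correlate best with their own number. With 3 libraries per line, deviations from the line's mean are tied together, so these values cannot decide whether same-numbered libraries belong together. The log2 fold changes of TLR6, LY96 and TICAM1 stay between -1.26 and -0.87, -0.94 and -0.62, and -0.63 and -0.54 over all alternatives. Depth limits TLR1, TLR2, TLR3, CD14 and the other Toll-like receptor genes, whose differences below a few counts cannot be seen.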

Other observations

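Among the sensors of nucleic acids and bacterial cell wall in the cytosol, which signal beside the Toll-like receptors, 5 of 10 genes were tested. Of these, 2 are lower and 1 is higher in 1CT-A, which is 40% and 20% beside 26% and 25% of all genes tested. TMEM173, the gene of STING, the adaptor that responds to cyclic dinucleotides, falls from 33.0, 30.9 and 34.9 CPM in 1CT to 6.18, 8.07 and 6.98 CPM in 1CT-A (log2 fold change -2.25, standard error 0.13, edgeR adjusted p = 2.3e-08). DDX58, the gene of the RNA sensor RIG-I, falls from 14.5 ± 1.11 to 7.91 ± 1.30 CPM (SD, n = 3, log2 fold change -0.92, edgeR adjusted p = 2.3e-04). MAVS, the adaptor gene of RIG-I, is not called (0.16, 95% interval -0.00 to 0.31), nor is NOD1, the gene of a peptidoglycan sensor (0.10, 95% interval -0.24 to 0.44). RIPK2, the gene of the kinase that NOD1 recruits, is higher in 1CT-A (0.44, edgeR adjusted p = 0.0174), and the call is lost without 1CT-A replicate 3 (edgeR adjusted p = 0.0545). AIM2, NOD2 and NLRP3 have at most 1 count in any library.

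Genes of molecules that have been described as ligands of TLR2 or TLR4 from the body's own cells are higher in 3 and lower in 1 of 5 tested, which is 60% and 20% beside 25% and 26% of all genes tested. HMGB1, the gene of a chromatin protein released from damaged cells, rises from 811 ± 49.7 to 1360 ± 66.2 CPM (SD, n = 3, log2 fold change 0.71, edgeR adjusted p = 1.7e-06). HSPD1, the gene of a mitochondrial chaperone, rises from 465 ± 36.5 to 806 ± 19.9 CPM (SD, n = 3, log2 fold change 0.76, edgeR adjusted p = 1.5e-06). Both have processed copies in the genome, so their counts are uncertain. TNC, a matrix protein gene that also lies near TLR4, rises from 0.651 ± 0.274 to 3.42 ± 0.644 CPM (SD, n = 3), and BGN, the gene of the proteoglycan biglycan, falls from 2.63 ± 0.956 to 0.718 ± 0.367 CPM (SD, n = 3, log2 fold change -1.90, edgeR adjusted p = 0.00181). Of the IL-1 receptor family, which shares MYD88 with the Toll-like receptors, IL1R1 rises from 28.6 ± 1.97 to 41.5 ± 3.72 CPM (SD, n = 3, log2 fold change 0.50, edgeR adjusted p = 0.00102). IL1RAP, its co-receptor gene, is not called (0.54, 95% interval -0.19 to 1.27), and IL18RAP, IL1RL1 and IL1RL2 have no count in any library. IL18R1, which was not tested, has no count in 1CT and 9, 1 and 6 counts in 1CT-A.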
